A study of Homo sapiens with 3 samples.

Results

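Long intergenic noncoding RNAs (lincRNAs) are transcripts that encode no protein and lie between coding genes. The ones described here were read from the RNA of 5637 cells, an established line of human bladder cancer. They were chosen by read count, as the genes typed lincRNA in the deposited table that lay outside chromosomes X and Y, were neither H19 nor MEG3, and held at least 100 reads summed over the 3 libraries analysed. The rule kept 177 genes, out of 2390 lincRNAs that met all of it but the read minimum and of 29960 genes in the table. The 3 libraries were 1 of the parental line (genotype WT) and 2 of its gemcitabine resistant derivative, called parental 1, resistant 1 and resistant 2. All were labelled untreated at harvest. Gemcitabine is a deoxycytidine analog that stops DNA synthesis, and the resistant line had been raised by long exposure to it. The study's methods describe the material as single-cell clones, so each library stands for a clone of the same line. It profiled 3 clones in each state, of which the libraries with a label were used.

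Many lincRNAs are capped, spliced and polyadenylated like messenger RNAs but stay at lower levels. Some act where they are made, on nearby genes or as scaffolds of nuclear bodies, and some act in the cytoplasm, where they bind proteins or microRNAs (miRNAs). Others matter mainly for what their introns hold, since small nucleolar RNAs (snoRNAs) and miRNAs are cut from them. UCA1, whose name stands for urothelial cancer associated 1, was described in bladder carcinoma, the cancer that the 5637 line models.

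Total counts on genes were 14475531, 15836788 and 17461941 in parental 1, resistant 1 and resistant 2. A count of 3, the limit that a count of 0 allows, corresponded to 0.213, 0.183 and 0.173 CPM (counts scaled to library size) and covers counting error only. All 9 markers of the urothelial carcinoma line that were checked stood at 3.99 to 3423 FPKM (fragments per kilobase, scaled to library size) in every library. The endothelial and leukocyte markers found in the table did not exceed 0.547 FPKM. Of the 4 fibroblast markers found, COL1A1 and COL1A2 stood at 9.05 to 16.3 FPKM and the other two did not exceed 0.0442. KRT5, a basal keratin among the urothelial markers, was listed at 105 FPKM in parental 1 and at 3.99 and 5.43 in resistant 1 and 2.

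The 3 lincRNAs whose change passed the test are shown first, by the 3′ end of the transcript whose length equals the length in the deposited table. Because the libraries were made from poly-A RNA, the polyadenylation hexamers AATAAA and ATTAAA were searched on the transcript strand in the last 50 bases, and a match is in capitals. The sequences are from GENCODE release 29 on GRCh38, 5′ to 3′.
RP11-336A10.4, bases 458 to 657: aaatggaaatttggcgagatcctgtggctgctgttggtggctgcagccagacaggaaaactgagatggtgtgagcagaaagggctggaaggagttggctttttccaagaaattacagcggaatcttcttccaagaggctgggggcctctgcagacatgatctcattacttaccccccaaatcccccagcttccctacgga
RP11-281P23.2, bases 548 to 747: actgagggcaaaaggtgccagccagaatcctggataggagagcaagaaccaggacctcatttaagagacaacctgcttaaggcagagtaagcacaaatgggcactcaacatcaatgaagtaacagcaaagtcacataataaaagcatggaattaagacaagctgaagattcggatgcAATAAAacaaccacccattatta
LINC00973, bases 763 to 962: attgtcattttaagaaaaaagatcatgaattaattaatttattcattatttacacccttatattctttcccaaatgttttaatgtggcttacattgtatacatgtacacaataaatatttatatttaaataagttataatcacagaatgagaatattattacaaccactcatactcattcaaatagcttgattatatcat
RP11-281P23.2 held AATAAA, starting 23 bases from the end. The other two held neither hexamer in this window. Of the 132 lincRNAs found in GENCODE 29 by identifier, 98 (74.2%) had a hexamer in the last 50 bases of some transcript, against 53.7% of the 7635 lincRNA genes in that release. Of the 132, 103 are typed lincRNA in that release, and the number of transcripts per gene was not matched. The shares are thus not like for like. An annotated end need not be the end of the RNA in these cells.

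RP11-336A10.4 fell in the resistant line. It held 109 reads in parental 1, 1 read in resistant 1 and 1 read in resistant 2. The parental level was 130.4-fold that of the resistant libraries combined, with an exact 95% counting interval of 35.2 to 1090.4. Its adjusted p was 0.00387 (edgeR's quasi-likelihood test with Benjamini-Hochberg adjustment over the 15643 genes tested). The authors' group means of normalized counts, which also cover clones not used here, were 88.0 in the parental and 1.36 in the resistant group. The gene (ENSG00000228951, called AL365356.3 in GENCODE 29) lies on chromosome 10, 5658825 to 5660124, minus strand, in hg19 coordinates. It has 3 exons in GENCODE 29, and no other gene with reads overlaps it.

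RP11-281P23.2 rose from 0.426 CPM in parental 1 to 11.6 CPM in resistant 1 and 11.6 CPM in resistant 2, which were 6, 189 and 201 reads. The resistant libraries lay side by side, far above the parental one. The log2 fold change, resistant over parental, was 4.74 ± 0.67 (SE) with an adjusted p of 0.0236 (edgeR's quasi-likelihood test). The authors' group means were 15.8 in the parental and 113.6 in the resistant group, a smaller difference than between the 3 libraries. The gene (ENSG00000249631, AC005699.1 in GENCODE 29) spans chromosome 4, 11627338 to 11815582, on the plus strand. Its span overlaps another lincRNA on the opposite strand, RP11-74M11.2, which held 0 reads in parental 1 and 3 in each resistant library.

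LINC00973 (CTD-2021J15.2 in the table, ENSG00000240476) rose from 0.568 CPM in parental 1 to 11.8 in resistant 1 and 10.6 in resistant 2, from 8 reads to 193 and 184. The log2 fold change was 4.28 ± 0.64 with an adjusted p of 0.0327 (edgeR's quasi-likelihood test). The authors' group means were 10.9 and 112.0. It lies on chromosome 3, 98699902 to 98701940, on the plus strand, inside the span of CTD-2021J15.1, an antisense gene placed on the same strand with 1, 13 and 12 reads. Reads of the 2 genes may be shared, and the fold change of CTD-2021J15.1 was 3.25 ± 1.34 with an adjusted p of 0.492.

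**Figure D1:**
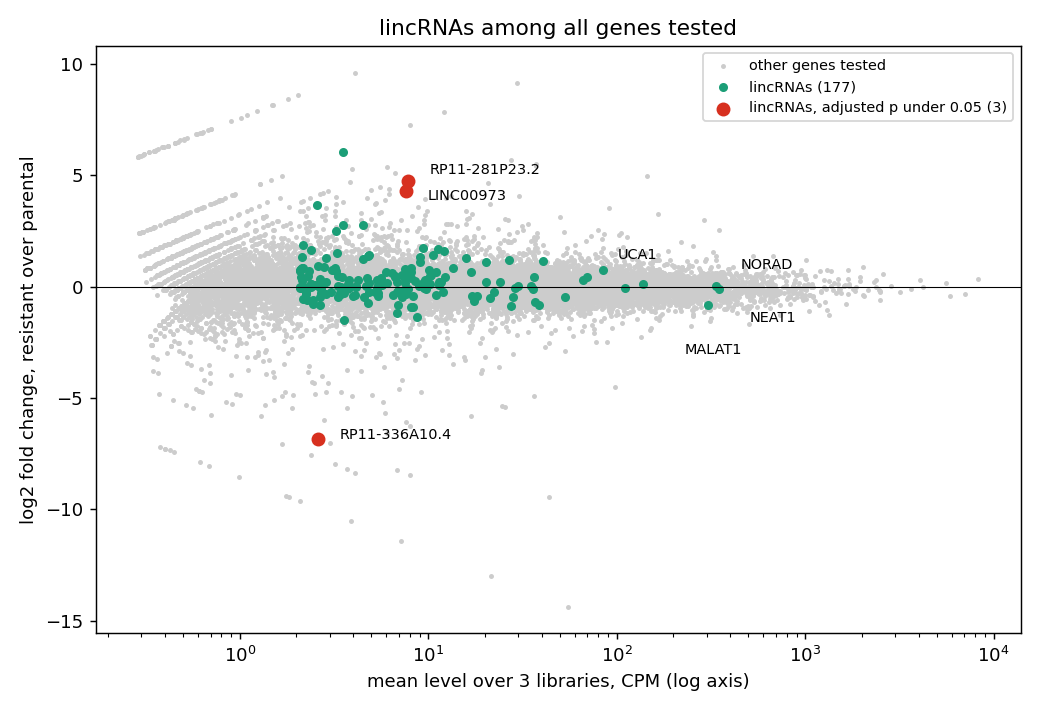
Log2 fold change, resistant over parental (vertical axis), against the mean level over the 3 libraries in CPM (horizontal log axis) for the 177 lincRNAs (green), the 3 of them past the threshold (red) and the other genes tested (grey). Most lincRNAs sit within 1 log2 unit of 0, and RP11-336A10.4 stands alone among them at -6.85.

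These were 3 of 177 lincRNAs, 2 higher and 1 lower in the resistant line. Over all genes tested, 91 passed the same threshold, which is 0.582%, with 0.134% higher and 0.447% lower. Among genes with at least 100 reads, the floor that the rule itself sets, the share was 0.625%. When genes with low counts were not filtered out, edgeR called 0 lincRNAs and 0 of 26434 genes, although 15 lincRNAs and 1261 genes had an unadjusted p under 0.05, so the 3 calls depend on that filter. All 177 lincRNAs entered the test. Counting 2.09 CPM as the read minimum, 24 of them would have missed it at their parental level and 7 at their resistant level. The 24 include RP11-281P23.2 and LINC00973, and the 7 include RP11-336A10.4. Each of the 3 called lincRNAs thus met the minimum only through the line where it was high. In 148 of the 177 the fold change was under 2-fold. The median SE of the fold changes was 0.51 on the log2 scale, with 1 library against 2. Their median log2 fold change was 0.11, against 0.029 over all genes tested and 0.0087 over genes with at least 100 reads.

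Direction could be read from the libraries without the test. Both resistant libraries lay above the parental one for 77 lincRNAs and below it for 48, and parental 1 lay between them for 52. The shares were 43.5% above and 27.1% below. Over all genes tested they were 35.2% above and 34.5% below, and over genes with at least 100 reads 34.1% and 35.2%. The rule sums 1 parental and 2 resistant libraries, so it admits more genes that are high in the resistant ones, the 24 against 7 given above. With the same minimum set on the mean of the parental level and the mean resistant level, which was chosen after seeing the data, 174 lincRNAs qualified, 65 of them above (37.4%) and 57 below (32.8%), against 33.5% and 35.8% of all genes above that minimum. Their median log2 fold change was then 0.049. Among members with at least 500 reads, 18 lay above and 15 below. The split of the 177 thus moved with how the minimum was set, and nothing is read from it here.

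The authors' group means had the same sign as the change between the 3 libraries for 142 of the 177 lincRNAs, and their median log2 ratio was 0.054. These means include the libraries used here, so this is not a separate replicate. The same share over all genes was not computed.

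Without adjustment, 26 lincRNAs had a p under 0.05, which is 14.7% against 9.56% of all genes tested. Of these 26, 20 (11.3%) were higher and 6 (3.39%) lower in the resistant libraries, against 4.65% and 4.91% of all genes, with the same unequal weight of the lines in the rule, and 25 kept their sign in the authors' group means. The exception was RP4-555D20.2, at 2.34, 5.14 and 6.10 CPM in parental 1, resistant 1 and resistant 2 but with group means of 71.9 (parental) and 69.3 (resistant). Apart from the 3 above, these genes did not pass the threshold and were chosen after their values were seen, unless they also fall under a group described further on. A fold change of at least 2-fold was fitted for 24 of the 26 and was seen in the group means of 12. The 26 were picked by the same fit, and these shares were not computed over all genes.

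**Figure D2:**
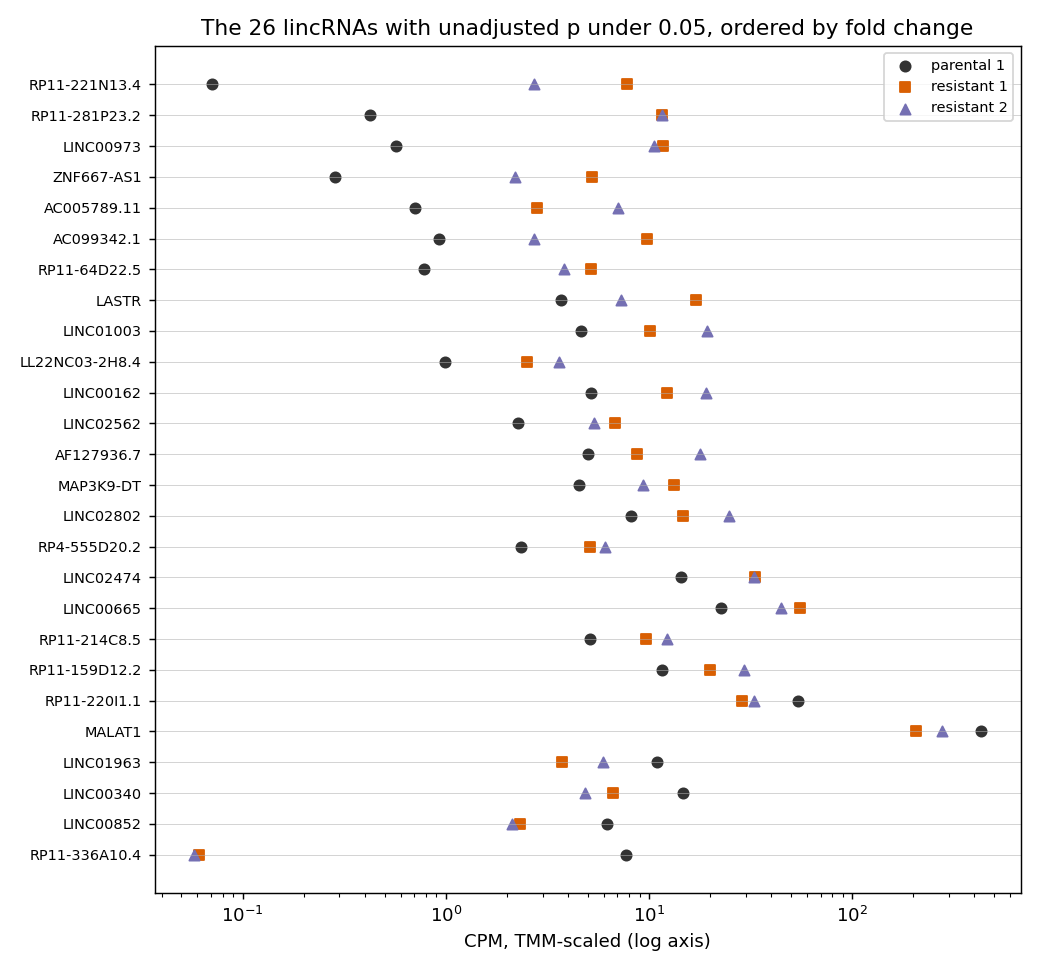
Level in CPM (horizontal log axis) of the 26 lincRNAs with an unadjusted p under 0.05, ordered by fold change, with 1 point for each library. In the upper 20 rows parental 1 is the lowest point and in the lower 6 rows it is the highest.

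Some of these were nearly silent in the parental library. RP11-221N13.4 on chromosome 12 held 1 read in parental 1 and 127 and 47 reads in resistant 1 and 2, a ratio of 72.7 with an exact counting interval of 12.9 to 2889 (adjusted p = 0.118, edgeR). Its resistant libraries differed by 1.49 on the log2 scale. Its span holds the pseudogene PCNPP3 on the opposite strand, with 6, 220 and 81 reads, and reads of the pair may not be told apart. AC099342.1 stood at 0.922, 9.84 and 2.71 CPM and AC005789.11 at 0.710, 2.81 and 7.03 CPM. In each of them 1 resistant library lay well above the other.

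ZNF667-AS1 (AC004696.2 in the table) starts beside ZNF667, a zinc finger gene on the opposite strand of chromosome 19. It stood at 0.284 CPM in parental 1, 5.26 in resistant 1 and 2.19 in resistant 2, with a log2 fold change of 3.67 ± 0.98 and an adjusted p of 0.225. ZNF667 stood at 0.355, 5.69 and 2.59 CPM, with 3.51 ± 0.91 and an adjusted p of 0.205. The 2 genes thus lay in the same order in the 3 libraries, both lowest in parental 1 and highest in resistant 1. Their spans overlap, and the sources describe both a stranded and an unstranded library kit, so part of their reads may be shared.

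LASTR (RP13-463N16.6, chromosome 10), named for its link to the splicing factor SART3, stood at 3.69, 17.1 and 7.31 CPM, a log2 fold change of 1.72 ± 0.63 (adjusted p = 0.427). It lies 22.0 kb from RP11-336A10.4 by gene midpoints. LINC00665 stood at 22.6, 55.6 and 44.5 CPM, with both resistant libraries above the parental one and a log2 fold change of 1.15 ± 0.38 (adjusted p = 0.368). LINC00162, also known as PICSAR, stood at 5.18, 12.2 and 19.2 CPM on chromosome 21. Its neighbour LINC00165 (AP001505.9) stood at 1.49, 2.20 and 6.16 CPM.

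The lower side held 5 lincRNAs besides RP11-336A10.4. LINC00340, an older symbol of CASC15, stood at 14.7, 6.66 and 4.84 CPM, a log2 fold change of -1.35 ± 0.44 (adjusted p = 0.366). LINC00852 stood at 6.24, 2.32 and 2.13 CPM but overlaps the coding genes TATDN2 and GHRL. The remaining members were LINC01963 at 10.9, 3.73 and 5.93 CPM, RP11-220I1.1 at 54.3, 28.7 and 32.9 CPM, and MALAT1.

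The promoters below are of lincRNAs with higher resistant levels and a start listed in RefSeq, chosen after their values were seen. Others met the same description and are not printed. Among these, the windows of LINC00665, LINC01003 and MAP3K9-DT held only CCAAT of the sequences searched, and that of LINC02802 held none. Each runs from 250 bases before to 50 after the start, 5′ to 3′ on the gene's strand, from RefSeq on GRCh38.p14. Capitals mark CACGTG (E-box), TGACGTCA (CRE), TGAGTCA (AP-1), CCGGAAGT (ETS), CCAAT or TATAAA, searched on both strands.
LINC00973, chr3:98980805-98981104, plus strand: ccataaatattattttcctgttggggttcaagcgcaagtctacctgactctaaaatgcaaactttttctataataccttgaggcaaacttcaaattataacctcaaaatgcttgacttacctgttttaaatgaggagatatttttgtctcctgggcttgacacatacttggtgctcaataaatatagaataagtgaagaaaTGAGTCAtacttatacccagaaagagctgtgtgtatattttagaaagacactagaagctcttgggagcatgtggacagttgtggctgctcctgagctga
LASTR, chr10:5596069-5596368, minus strand: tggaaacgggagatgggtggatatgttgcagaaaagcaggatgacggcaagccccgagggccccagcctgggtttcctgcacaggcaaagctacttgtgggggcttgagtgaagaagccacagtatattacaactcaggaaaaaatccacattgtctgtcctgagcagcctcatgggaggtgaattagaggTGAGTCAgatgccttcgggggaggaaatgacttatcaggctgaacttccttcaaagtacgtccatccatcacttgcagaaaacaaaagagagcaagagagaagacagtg
ZNF667-AS1, chr19:56477624-56477923, plus strand: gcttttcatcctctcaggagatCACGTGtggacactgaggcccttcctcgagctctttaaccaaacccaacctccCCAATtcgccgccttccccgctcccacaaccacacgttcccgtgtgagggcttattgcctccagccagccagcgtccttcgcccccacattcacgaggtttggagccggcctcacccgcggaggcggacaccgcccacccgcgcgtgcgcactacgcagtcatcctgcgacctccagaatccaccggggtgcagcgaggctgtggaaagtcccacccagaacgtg
LINC00973 has 4 listed starts, and the one shown lies 3 bases from the GENCODE 29 start. The LASTR start is the GENCODE 29 one, while that of ZNF667-AS1 lies 624 bases from it. The windows of LINC00973 and LASTR held TGAGTCA and that of ZNF667-AS1 held CACGTG and CCAAT. The ZNF667-AS1 window held 24 CG dinucleotides, against 1 in that of LINC00973 and 5 in that of LASTR. A promoter could be matched for 67 of the 177 lincRNAs, of which 40 lay within 100 bases of the GENCODE 29 start and the others may not be the start used. These 67 windows had a median of 24 CG dinucleotides, against 14 over all 35116 promoters of this length.

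TGAGTCA occurred in 6 of the 67 windows (8.96%), against 4.95% of all promoters. The 6 were LINC00973, LASTR, CYTOR, LINC00339, EIF3J-DT and LINC00963. Their log2 fold changes were 4.28, 1.72, 0.86, 0.20, 0.14 and -0.058 in that order, so 1 of them passed the threshold. CCGGAAGT was in 9 windows (13.4% against 4.14%), CACGTG in 10 (14.9% against 7.26%), CCAAT in 28 (41.8% against 34.6%) and TATAAA in 6 (8.96% against 11.5%). TGACGTCA was in none of the 67 and in 1.85% of all promoters. These are matches of letters and not measured sites.

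None of the 10 lincRNAs with the highest levels per length passed the threshold in edgeR. The 177 together took 0.282%, 0.280% and 0.298% of all reads in parental 1, resistant 1 and resistant 2. The 3 with the most reads, NEAT1, NORAD and MALAT1, held 39.1%, 31.2% and 33.0% of the lincRNA reads in those libraries. Per length, the median of their mean levels was 3.53 FPKM, below the 9.74 FPKM of the 11659 coding genes with at least 100 reads, and 34 lincRNAs stood above that coding median. The members ranged from 0.498 to 65.3 FPKM.

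CTC-503J8.6 on chromosome 19 (61.0, 48.8 and 86.0 FPKM) and NORAD (67.2, 55.1 and 73.1 FPKM) had the highest mean levels per length. NORAD, listed as LINC00657, binds the PUMILIO proteins and is induced by DNA damage. Parental 1 lay between the resistant libraries for both. Below them came RP11-611L7.1 at 35.3, 39.9 and 51.4 FPKM and CTD-2231H16.1 at 54.7, 25.0 and 37.0 FPKM, then UCA1 and MALAT1, and then LINC01503 (RP11-65J3.1) at 32.3, 42.9 and 25.5 FPKM. SNHG25, LINC00340 and LINC02802 (RP11-14N7.2), the last at 13.1, 25.0 and 40.8 FPKM, complete the 10 highest in this order. The ranges of CTC-503J8.6 and NORAD overlapped, NORAD lay above RP11-611L7.1 in every library, and from there on each range overlapped the next. FPKM depends on the deposited length, which is 327 bases for LINC00340.

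UCA1 stood at 24.3 FPKM in parental 1 and at 42.7 and 42.6 FPKM in resistant 1 and 2, from 814, 1563 and 1720 reads. The resistant libraries lay close together above the parental one. The log2 fold change was 0.75 ± 0.34 (edgeR's quasi-likelihood test, p = 0.056 before adjustment and 0.543 after it), and the authors' group means were 936.8 in the parental and 1323 in the resistant group. CYTOR (LINC00152), a lincRNA linked to the cytoskeleton, stood at 7.82, 17.2 and 12.3 FPKM with 0.86 ± 0.45 (adjusted p = 0.609). The spans of UCA1 and CYTOR each overlap a gene with reads on the opposite strand, AC004510.3 and AC133644.3, so part of their reads may be shared.

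MALAT1 and NEAT1 are neighbours on chromosome 11, retained in the nucleus, where MALAT1 collects in speckles and NEAT1 builds paraspeckles. MALAT1 stood at 431.9 CPM in parental 1 and 205.3 and 276.4 CPM in resistant 1 and 2, a log2 fold change of -0.84 ± 0.35 (unadjusted p = 0.042, adjusted p = 0.501). NEAT1 stood at 332.7, 356.7 and 320.4 CPM, a log2 fold change of 0.025 ± 0.34. Both resistant libraries lay below the parental one for MALAT1, and parental 1 lay between them for NEAT1. Of the 5 cancer-associated lincRNAs on the list used, namely UCA1, CYTOR, NEAT1, MALAT1 and NORAD, none passed the threshold, 1 had an unadjusted p under 0.05, and the median log2 fold change was 0.025. NEAT1 was also the only member on the list of 8 p53-responsive lincRNAs.

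**Figure D3:**
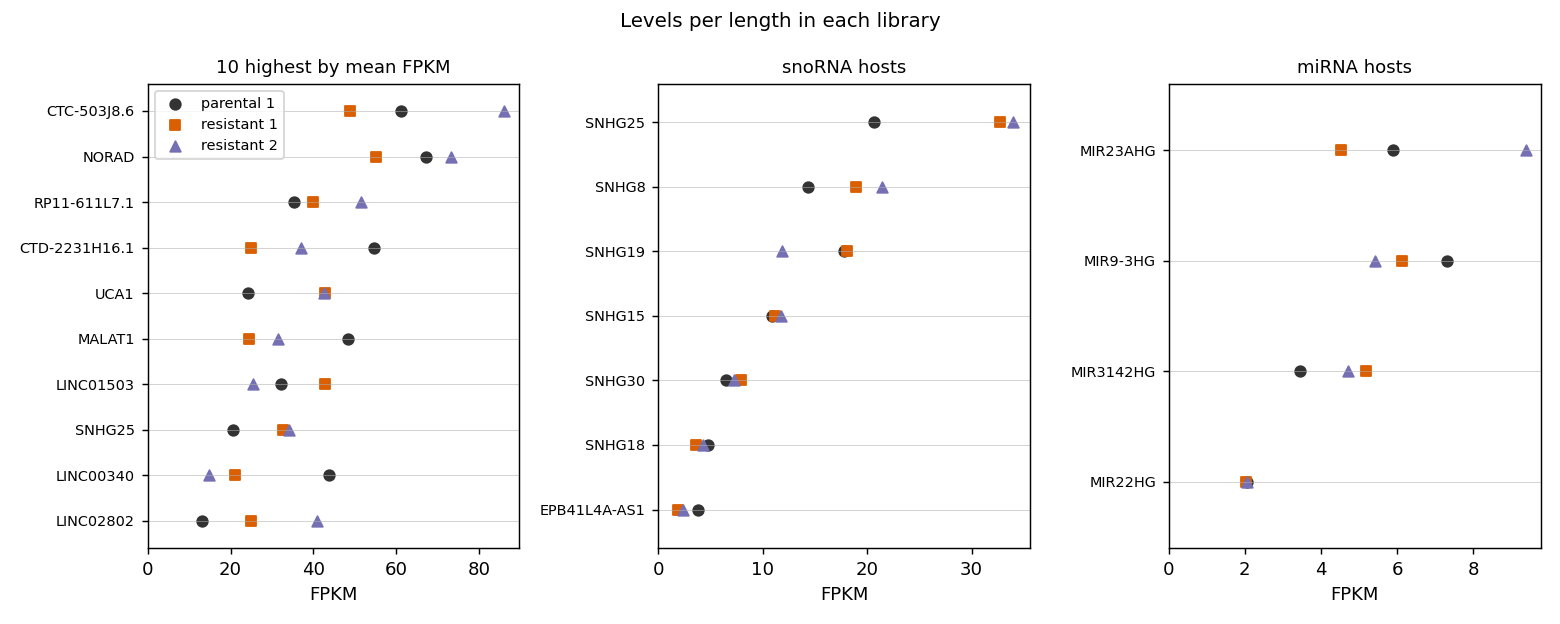
FPKM (horizontal axis) in each library of the 10 lincRNAs with the highest mean and of the 7 snoRNA hosts and 4 miRNA hosts on the lists used, with 1 point for each library. UCA1 and SNHG25 have both resistant points to the right of parental 1, and MALAT1, LINC00340 and EPB41L4A-AS1 have both to the left.

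The list used of 40 snoRNA hosts, genes whose introns carry the guides of ribosomal RNA modification, held 7 of the lincRNAs. None of the 7 passed the threshold or had an unadjusted p under 0.05, and their median log2 fold change was 0.024. In CPM, both resistant libraries lay above the parental one for SNHG8, SNHG25 and SNHG30 and below it for EPB41L4A-AS1, SNHG18 and SNHG19. SNHG15 stood at 34.8, 33.7 and 37.0 CPM. The extremes were SNHG25 at 5.89, 8.80 and 9.50 CPM (0.64 ± 0.46) and EPB41L4A-AS1 at 11.7, 5.38 and 7.14 CPM (-0.90 ± 0.45). The coding gene EPB41L4A, which EPB41L4A-AS1 overlaps on the other strand, had a log2 fold change of -0.97 (adjusted p = 0.555).

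Of the 37 miRNA hosts on the list used, 4 were among the lincRNAs. A single arm is shown for 6 of their miRNAs, from RefSeq on GRCh38.p14, with the seed, bases 2 to 8, in capitals.
hsa-miR-22-3p, from MIR22HG: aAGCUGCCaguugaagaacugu
hsa-miR-146a-5p, from MIR3142HG: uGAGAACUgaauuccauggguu
hsa-miR-9-5p, from MIR9-3HG: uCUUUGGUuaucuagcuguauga
hsa-miR-23a-3p, from MIR23AHG: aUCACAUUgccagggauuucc
hsa-miR-27a-3p, from MIR23AHG: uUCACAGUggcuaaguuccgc
hsa-miR-24-3p, from MIR23AHG: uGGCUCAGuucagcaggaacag
All 13 mature miRNAs listed for these hosts lie inside the host's GENCODE 29 span on its strand, and the 13 seeds differ. The miRNAs themselves were not measured in these poly-A libraries. MIR3142HG (hsa-mir-146a in the table), the host of miR-146a, a brake on NF-kappaB signalling, stood at 8.16, 11.6 and 10.9 CPM (0.46 ± 0.44). MIR9-3HG stood at 20.4, 16.1 and 14.8 CPM (-0.40 ± 0.39). MIR22HG stood at 5.53, 5.14 and 5.41 CPM, and MIR23AHG at 10.7, 7.76 and 16.8 CPM, with parental 1 between the resistant libraries. None of the 4 passed the threshold or had an unadjusted p under 0.05, and their median log2 fold change was 0.063. The list did not hold every lincRNA now named as a miRNA host. MIR924HG (LINC00669) and MIR4453HG (MIR4453) were not on it, with log2 fold changes of 0.47 and -0.34.

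The type of these genes has been revised since the annotation used for the table. Of the 132 found in GENCODE 29, 103 are still lincRNA and 7 are protein coding. Those 7 include SMIM26 (LINC00493), NCBP2-AS2 (RP11-21N3.1) and MTLN (LINC00116), which encode small proteins. SMIM26 held 186, 195 and 185 reads, NCBP2-AS2 307, 400 and 446 reads, and MTLN 137, 173 and 181 reads, and none had an unadjusted p under 0.05. Of the same 132, 29 have a single exon, with a median log2 fold change of 0.22, against 0.082 for the 103 with more exons.

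The resistant clones also differed from each other. For 21 lincRNAs they were at least 2-fold apart, 11 higher in resistant 1 and 10 higher in resistant 2. The share of all genes this far apart was not computed. The median size of the log2 difference between them was 0.40 for the lincRNAs, against 0.33 over genes tested with at least 100 reads. The lincRNAs, with a median of 271 reads, were not matched to those genes by read count, so nothing is read from this difference. Among lincRNAs with at least 100 reads in a resistant library the widest gap was that of AC099342.1, at 1.82 on the log2 scale and higher in resistant 1. RP11-221N13.4 (1.49) and AC022007.5 (1.25) were also higher in resistant 1. LINC00165 (-1.44), AC005789.11 (-1.29) and APPAT (AC159540.1, -1.22) were higher in resistant 2. AC022007.5 stood at 7.95, 16.2 and 6.74 CPM and APPAT at 4.19, 2.45 and 5.82 CPM, so the clones lay on either side of the parental library.

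Because lincRNAs can share regulation or reads with the gene next to them, each was set beside its nearest coding gene that was tested. In 119 of 177 pairs the fold changes had the same sign. No such share was computed for other neighbouring genes, so the counts of pairs have no background. The median log2 fold changes of the lincRNAs and of genes with at least 100 reads were 0.51 and 0.40 on chromosome 4. On chromosome 21 they were 0.90 and -0.28. Whether shifts of whole chromosomes enter the pairs was not tested. Across the 177 pairs Pearson's r was 0.38 and Spearman's rho 0.44, given as a description, since all points come from the same 3 libraries and several pairs share a gene. For the 80 pairs under 10000 bases apart without overlap, 57 had the same sign (rho = 0.47). For the 67 pairs farther apart 46 did (rho = 0.45), and for the 30 overlapping pairs 16 did (rho = 0.16). Pearson's r in these groups was 0.57, 0.24 and 0.72 in the same order, so it ranked them differently. None of the neighbours passed the threshold in edgeR.

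**Figure D4:**
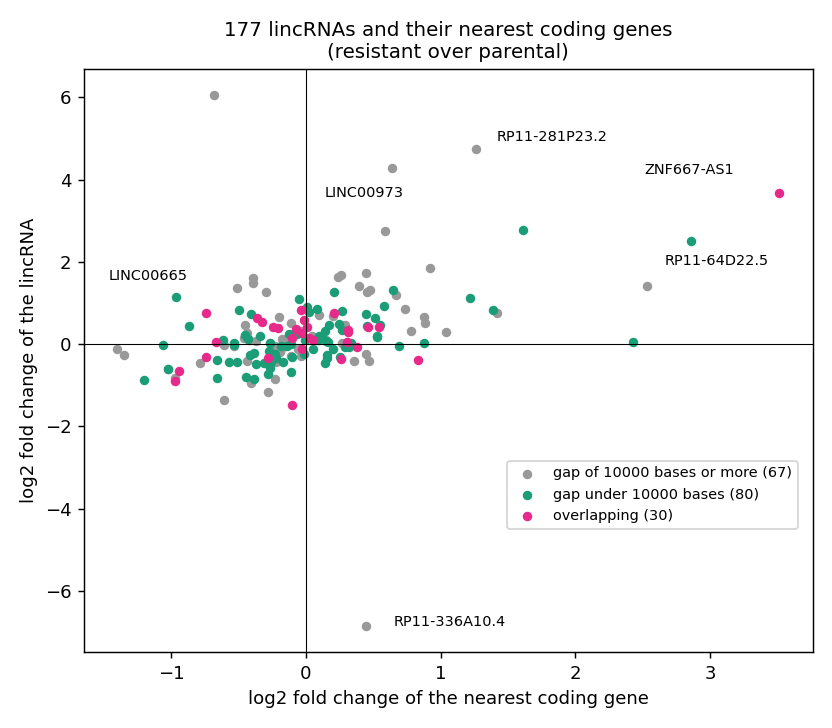
Log2 fold change of each of the 177 lincRNAs (vertical axis) against that of its nearest tested coding gene (horizontal axis), both resistant over parental, coloured by the gap between them. ZNF667-AS1 and RP11-64D22.5 are high together with their neighbours, while RP11-336A10.4 and LINC00665 lie opposite to theirs.

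Besides ZNF667-AS1 and ZNF667, RP11-64D22.5 and AADAC, an arylacetamide deacetylase, lay 5788 bases apart on chromosome 3 with fitted changes of over 2-fold in both. RP11-64D22.5 stood at 0.780, 5.20 and 3.80 CPM (2.51 ± 0.68, adjusted p = 0.238) and AADAC at 1.21, 9.41 and 8.18 CPM (2.86 ± 0.59, adjusted p = 0.0986). GENCODE 29 lists RP11-64D22.5 as a transcribed pseudogene, so its reads may be shared with a related gene. LINC02562 (RP11-44F21.5) stood at 2.27, 6.85 and 5.36 CPM and PARM1, 31587 bases away, at 1.56, 5.07 and 13.0 CPM. LINC00665 went the other way from its neighbour ZFP14, which stood at 8.02, 4.10 and 4.15 CPM.

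No other gene around the 3 called lincRNAs passed the threshold. Within 500 kb of RP11-336A10.4, 11 other genes were tested, with log2 fold changes from -0.53 to 1.72. RP11-336A10.5, a lincRNA 7.88 kb away by midpoints, held 76, 93 and 61 reads (-0.23 ± 0.53). ASB13, the nearest coding gene, had a log2 fold change of 0.45 ± 0.38. Near RP11-281P23.2 only 2 other genes were tested, of which HS3ST1, a heparan sulfate sulfotransferase, had 1.26 ± 0.48 (adjusted p = 0.451). Near LINC00973, DCBLD2 had 0.64 ± 0.41 (adjusted p = 0.710).

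**Figure D5:**
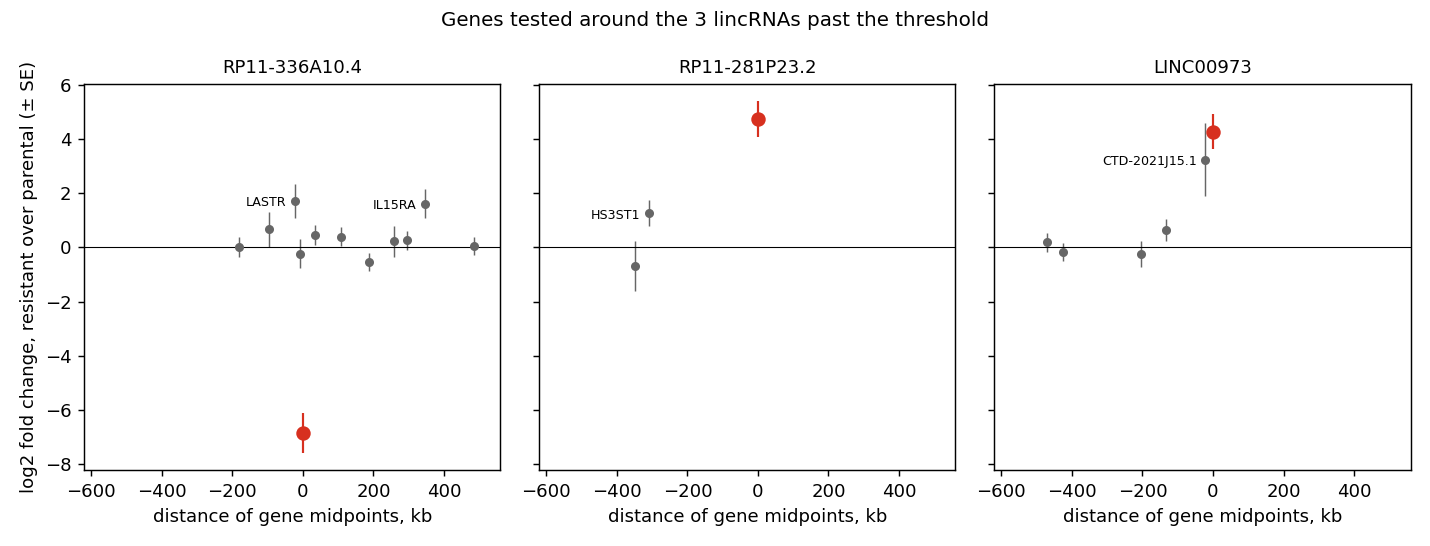
Log2 fold change, resistant over parental, with its SE (vertical axis) of the genes tested within 500 kb of each of the 3 lincRNAs past the threshold, against the distance between gene midpoints in kb (horizontal axis). The lincRNA itself is in red at 0, and other genes with an unadjusted p under 0.05 are named.

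At the read minimum, the members just inside it were LINC01956 and RP11-849F2.8, with 100 reads each, and Z83851.4, with 101. Just outside it lay RP5-1125A11.1 and Z83851.1, with 99 reads each, and RP11-649A18.7 and RP11-288H12.4, with 96 each. Below the minimum, 1657 of the 2390 lincRNAs held 1 to 99 reads and 556 held none in these libraries.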

How the data were processed

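RNA of 5637 clones was sequenced by the authors from poly-A RNA. Per the labels, the submitters' processing notes name CASAVA 1.8 and hg19. The aligner, the counting tool and the annotation are not given in the sources used here, nor is it clear whether strand was used. The deposited table holds raw read counts and FPKM per library. FPKM is per the authors' gene length and library total. The group signal in the same deposited table is the authors' mean of size-factor-normalized counts, printed here as the authors' mean. Fold changes and p-values of the authors' DESeq2 comparison are also in the table and were not used, nor were 6 per-library columns whose names match no sample label.

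Counts of the 3 labelled libraries (14475531 to 17461941 reads) were tested with edgeR 4.0.16 (TMM factors, filterByExpr, quasi-likelihood F test, Benjamini-Hochberg over 15643 genes, threshold 0.05, R 4.3.3). With 1 residual degree of freedom, the lone parental library is assumed to vary like the resistant ones. The SE of a log2 fold change was taken as its size divided by the square root of F. The study describes the libraries as separate clones, so p-values rest on the spread between the resistant clones, pooled over genes. No spread between parental clones enters them. CPM values are TMM-scaled. In simulated data on 15307 genes, 100 of 100 changed by 1.5 and 100 of 100 changed by 3 on the log2 scale were recovered. In this comparison 12 of 15107 unchanged genes were called. The changed genes were simulated with a dispersion (spread between libraries) below the 0.0534 fitted to the real counts. Genes of low level were not among those changed. The recovered share is therefore not the power of the test for the lincRNAs. The differences between resistant libraries used CPM plus 0.1, and ratios of group means used a pseudocount of 1. Identifiers were matched to GENCODE 29, from which no coordinates were mixed with the table's (202 of 28622 shared genes had the same start). Promoters were matched by symbol, taking the RefSeq start nearest the GENCODE 29 start.

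Genes named were the lincRNAs past the threshold, the 10 highest by FPKM, members of the lists (snoRNA hosts, miRNA hosts, nuclear retained, p53-responsive, cancer-associated and named by the study, of which the last held no member), those nearest the read minimum, and the 6 with the widest gap between resistant libraries among those with at least 100 reads in 1 of them. Others were chosen after their values were seen. The members and lists were chosen with earlier results of these data known. Alternatives covered scaling, filter, prior count, DESeq2 1.42.0, the earlier edgeR method, thresholds, group means and left-out libraries. Intervals cover counting error only. Python 3.11.15, pandas 2.3.3, scipy 1.17.1 and matplotlib 3.10.9 were used.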

Additional observations from a re-analysis of the deposited data

How the results depend on the processing

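The count of 3 called lincRNAs came out as 3 with DESeq2 size factors, with a prior count of 2 and at an adjusted p of 0.1. It was 4 with total counts, with DESeq2 and with the earlier edgeR method, where the same 3 were joined by RP11-221N13.4 (adjusted p = 0.045, 0.0214 and 0.0478). Without the filter on low counts edgeR called 0 lincRNAs and 0 genes of 26434, with 15 lincRNAs and 1261 genes at an unadjusted p under 0.05. RP11-336A10.4, RP11-281P23.2 and LINC00973 then had adjusted p values of 0.318, 0.726 and 0.726, so the calls rest on the filter. At an unadjusted p under 0.05 there were 26. Among members with at least 500 reads edgeR called 0, since none of the 3 has that many. In 2 alternatives chosen after seeing the data, 1 was called without members that overlap another gene with reads (118 left) and 3 among members still lincRNA in GENCODE 29.

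Every alternative included the same libraries, and most kept the read minimum that weights the lines unequally. A median over all genes was not set beside each of them. The lincRNAs' median log2 fold change of 0.111 was above 0 in each alternative. It was 0.114 with DESeq2 size factors, 0.167 with total counts, 0.104 without the filter, 0.107 with DESeq2, 0.108 with a prior count of 2, 0.0887 at 500 reads or more, 0.0536 in the group means, 0.0855 without overlapping members, 0.165 among members still lincRNA and 0.0489 with the equally weighted minimum, which was added after seeing the data. It ranged from 0.105 to 0.106 when either resistant library was left out, which leaves 1 library against 1 and no test. The 125 lincRNAs with both resistant libraries on the same side (77 above, 48 below) were 125 with DESeq2 size factors (77 and 48), 130 with total counts (86 and 44), 33 at 500 reads or more (18 and 15) and, in an alternative chosen after seeing the data, 122 with a level minimum that weights both lines equally (65 and 57). Under total counts the changes of RP11-849F2.8, LINC01956 and AC159540.1 reversed to 0.012, 0.024 and 0.033. Total counts leave out the TMM factors, which scale all genes of a library alike. The factors were 0.974 in parental 1, 1.03 in resistant 1 and 0.994 in resistant 2. The causes of the other shifts were not tested.

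No paired analysis was possible, since the study describes independently derived clones and no pairing of parental with resistant ones. With 8 reads or fewer in 1 group, the size of the 3 called changes is known only roughly.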

Other observations

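Other noncoding genes that the study's supplementary lists name lie outside the lincRNA type of the deposited table. LINC00839 (chromosome 10), typed as a processed transcript, held 0 reads in parental 1, 32 in resistant 1 and 72 in resistant 2, with an adjusted p of 0.108 (edgeR's quasi-likelihood test). LINC00704, of the same type, held 23, 90 and 179 reads, which gave 2.27 ± 0.65 on the log2 scale (adjusted p = 0.267). Well known snoRNA hosts are also typed otherwise there. ZFAS1 stood at 28.8, 15.7 and 16.5 CPM (-0.84 ± 0.37), DANCR at 23.1, 33.6 and 59.0 CPM (1.01 ± 0.44) and GAS5 at 62.0, 55.3 and 65.8 CPM (-0.035 ± 0.34) in parental 1, resistant 1 and resistant 2. None of these genes passed the threshold, and ZFAS1, DANCR and GAS5 were chosen after their values were seen.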
